A study of Anguilla anguilla with 12 samples.

Results

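The miR-30 family of European eel liver was read from a list of predicted microRNA (miRNA) precursors. Precursors were taken as members when the zebrafish miRNA given as an example with the same seed began with miR-30 followed by a letter. This gave 7 of the 820 precursors listed, 5 of them named for miR-30a-5p and 2 for miR-30e-3p. The seed is the stretch of bases 2 to 8 of a miRNA, counted from its 5′ end, which does most of the pairing with target mRNAs. A name in the list therefore stands for a seed and does not tell which miR-30 gene of another fish a hairpin corresponds to.

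The libraries came from livers of wild eels in the yellow stage, in which European eels grow before they mature. There were 6 animals from the Gironde Estuary, described in the study as polluted, and 6 from Arcachon Bay, described as pristine. Age, sex and treatment are not given in the labels. The study asked which liver miRNAs differ between the sites, but the list has 1 pooled value per precursor and arm and no column per animal. No spread between animals could therefore be given, and the sites are not compared. The values describe whole liver, in which fewer cells of a type and less RNA per cell cannot be told apart. Seeds of the hepatocyte miRNAs miR-122, miR-192 and miR-194 held 66.5% of the mature reads, and the lists for 6 other cell types held from 0.00271% to 0.969%. Some marker families had no precursor listed. Those present were 2 of 4 for leukocytes, 2 of 3 for mesenchymal cells, 1 of 2 for erythroid cells and 2 of 3 for muscle. The endothelial and epithelial lists were complete.

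A miRNA is cut from a hairpin RNA by the enzymes Drosha and Dicer, which release a duplex of the 5p arm and the 3p arm with short 3′ overhangs. One arm is usually loaded into an Argonaute protein and kept, and the other is degraded. The prediction program labels an arm mature and the other one star. The label does not show which arm was kept. A precursor named miR-140-5p, for example, has 45090 star reads and 34079 mature reads. In vertebrates the miR-30 genes share the seed of their 5p arm, and some of them also leave a stable 3p arm. In mammalian liver, miR-30c is known to lower lipoprotein assembly, and in zebrafish miR-30a is needed for the formation of bile ducts.

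The 5p arms carry the seed by which most members were chosen, and they are given here with the seed in capitals. The hairpins are called by their scaffold. On scaffold 93 there are 2, called first and second in the direction of transcription.
Scaffold 12, 5p: uGUAAACAuccccgacuggaagc
Scaffolds 443840 and 93 (first), 5p: uGUAAACAuccuugacuggaagcu
Scaffolds 93 (second) and 15134, 5p: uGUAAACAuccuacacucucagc
Scaffold 2659, 5p: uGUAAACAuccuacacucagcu
Scaffold 5846: uGUAAACAucccgacugga

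All 7 precursors carried the seed GUAAACA at bases 2 to 8 of an arm. The rule fixed this for the 5 entries named for miR-30a-5p, but not for the 2 named for miR-30e-3p. The first 11 bases of that arm were the same in all 7. These letters made up 5 distinct sequences of 19 to 24 bases. The differences lay behind the shared start. Counted from the 5′ end of the scaffold 12 arm, the arm of scaffold 443840 differed by C12U and C13U over the 23 bases that both have. The arm of the second hairpin of scaffold 93 differed from that of scaffold 12 by C12U, C13A, G14C, G18C, G19U and A20C. The scaffold 2659 arm had the same first 18 bases as that of the second hairpin of scaffold 93. With 2 neighbouring bases left out of the scaffold 93 arm, its other 21 bases were the same as the first 21 of the scaffold 2659 arm.

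The rule fixed the 3p seed for the 2 entries named for miR-30e-3p, but not for the other members. The 3p arms fall into 2 types and are given in the same way.
Scaffold 12, 3p: cUUUCAGUcggauguuugc
Scaffolds 443840 and 93 (first), 3p: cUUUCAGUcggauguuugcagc
Scaffold 93 (second), 3p: cUGGGAGAgggguguuuacgcu
Scaffold 15134, 3p: cUGGGAGUgggguguuugcgcu
Scaffold 2659, 3p: cUGGGCGAaggguguuuacuuu

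The hairpins of scaffolds 12, 443840 and 93 (first) had the 3p seed UUUCAGU, which is the seed the list names miR-30e-3p. The other 3 full hairpins had 3p seeds that begin with UGGG and differ in the bases after it. Between the 3p types, the 5p arms were identical at 63.6% to 78.3% of positions and the 3p arms at 50% to 73.7% (9 pairs each). Within a type, the 5p arms were identical at 81.8% to 100% and the 3p arms at 72.7% to 100% (6 pairs each). Pairs are of hairpins, so copies with the same arm enter as separate hairpins and the pairs are not independent. The 3p values count the 3p seed, which the rule fixed for the members named for miR-30e-3p. The types were set by letters of the 3p arms, so the 3p values depend in part on the grouping. The 5p values are not independent of it either, since the arms of a hairpin pair with each other in the predicted folds. The 5p values count the seed, which the rule fixed for the members named for miR-30a-5p. They therefore do not show that the 5p arm is better kept than the 3p arm. Arms were set side by side from the 5′ end without gaps, so a base gained or lost lowers the values.

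**Figure D1:**
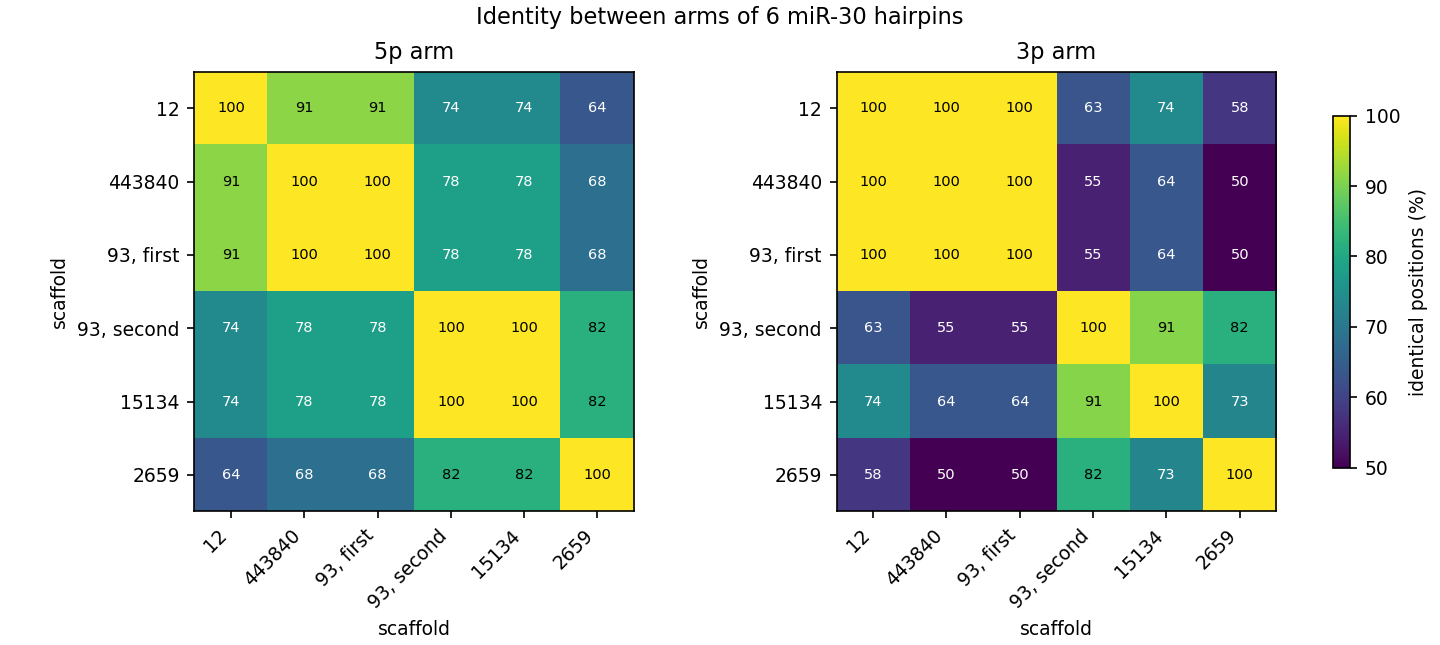
Identity between the arms of 6 miR-30 hairpins, for the 5p arm (left) and the 3p arm (right), in percent of positions over the shorter arm, with colour and number giving the same value. In the 5p arm, values within the first 3 and within the last 3 hairpins (81.8% or more) lie above those between them (78.3% or less). In the 3p arm the ranges meet, with 72.7% within the last 3 and up to 73.7% between.

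The family's reads came almost entirely from the hairpins of the UUUCAGU type. With each arm sequence counted once, the family held 2422893 reads of both arms. The arms of scaffolds 12 and 443840 made up 98.5% of them, and all other arms 1.53%. The scaffold 443840 arms are also those of the first hairpin of scaffold 93.

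The scaffold 12 hairpin (725439 to 725498, plus strand, listed as miR-30a-5p) was the most abundant member and a 5p hairpin. It had 1292759 reads of the 5p arm, 137644 of the 3p arm and 26 of the loop. Its 5p arm ranked 23rd among the 676 distinct mature sequences of the list and held 53.4% of the family's reads. The star share, which is the reads of the star arm over those of both arms, was 9.62% (exact binomial 95% interval 9.57% to 9.67%). This and all further intervals cover counting error only, not the spread between eels or copies made in amplification.

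The miR-30e-3p hairpins of scaffold 443840 (48 to 109, minus strand) and scaffold 93 (9113 to 9173, minus strand, first) gave more reads from the 3p arm than from the 5p arm. On scaffold 443840 there were 610352 reads of the 3p arm and 345139 of the 5p arm, a ratio of 1.77. On scaffold 93 there were 580566 reads of the 3p arm and 345134 of the 5p arm, a ratio of 1.68. The arm with the miR-30 5p seed was thus listed as star in both. Star shares were 36.1% (interval 36.0% to 36.2%) and 37.3% (interval 37.2% to 37.4%). Both arms of the pair have identical letters, so the list does not tell how much each copy contributed.

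The second hairpin of scaffold 93 (8593 to 8652, minus strand) and the scaffold 15134 hairpin (15975 to 16036, minus strand) gave reads of the 5p arm nearly alone. They had 29581 and 29580 reads of an identical 5p arm, so the list does not tell these copies apart. Their 3p arms, which differ by A8U and A18G counted from the 5′ end of the scaffold 93 arm, had 88 and 79 reads. These are values of separate sequences. The star shares were 0.297% (interval 0.238% to 0.365%) and 0.266% (interval 0.211% to 0.332%), and the intervals overlap. Each share sets the reads of a copy's own 3p arm against 5p reads that may come from either copy. The shares and their intervals may therefore be too low for a single copy.

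The scaffold 2659 hairpin (9513 to 9570, plus strand), whose 5p arm is closest to that pair, had 6105 reads of the 5p arm and 891 of the 3p arm. Its star share of 12.7% (interval 11.96% to 13.5%) lay above both of theirs as listed, with no overlap of intervals. It had fewer reads of the 5p arm than they did and more of the 3p arm. As listed, hairpins of the UGGG type thus differed in the balance of their arms although their 5p arms share 18 bases.

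**Figure D2:**
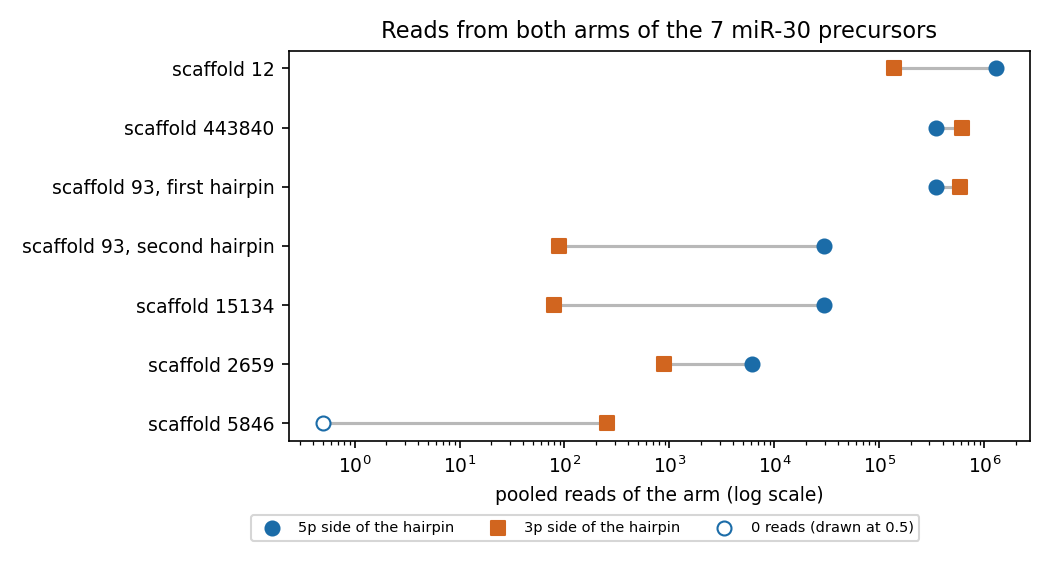
Pooled reads of the 5p side (circles) and 3p side (squares) of each miR-30 precursor, on a log scale, with 1 value per arm and no replicates. The 3p square lies right of the 5p circle for scaffold 443840 (610352 and 345139 reads) and the first hairpin of scaffold 93, and for scaffold 5846, whose 5p side has 0 reads.

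The names do not always follow the side of the hairpin. Of the 5 entries named for the 5p arm, 4 had their mature sequence on the 5p side. The exception was the scaffold 5846 precursor (20844 to 20886, plus strand), in which the sequence with the miR-30 5p seed lies on the 3p side. The scaffold 12 and 5846 precursors are given with the mature sequence in capitals to show this.
Scaffold 12: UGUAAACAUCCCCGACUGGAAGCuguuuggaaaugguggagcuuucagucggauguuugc
Scaffold 5846: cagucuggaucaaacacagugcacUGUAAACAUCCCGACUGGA

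The scaffold 5846 mature sequence has the letters of the scaffold 12 one with a run of 3 C in place of 4, cut to 19 bases. It had 255 reads, and its predicted star arm had 0, for which 3 reads would be a star share of 1.18% (exact interval up to 1.44%). The precursor was 43 bases long with a loop of 4 bases, and 9 of the 820 precursors were of that length or shorter. Its folding energy was -13.9 kcal/mol, or -0.323 kcal/mol per base, and 82.0% of all precursors had a lower (more stable) energy per base. The miRDeep2 score was 1.5, which is 0.00588 per read. The other 6 members scored from 3569.3 to 729271.6, or 0.51 per read in each.

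The 6 full hairpins were 58 to 62 bases long and folded into a single stem. Their energies ran from -34.7 kcal/mol for the first hairpin of scaffold 93 to -25.8 kcal/mol for scaffold 2659. Per base they ran from -0.569 to -0.445 kcal/mol, against a median of -0.398 kcal/mol over all 820 precursors. Between 6.71% and 31.3% of precursors had a lower energy per base than these members.

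A duplex cut by Drosha and Dicer typically has 2 overhanging bases at the 3′ end of each arm. In the predicted folds this held at both ends for 4 of the 7 members, against 43.5% of the 806 precursors whose folds pair the arms. The 4 were scaffolds 443840, 93 (first), 2659 and 5846. The scaffold 5846 star arm had 0 reads, so its ends are predicted and do not show how a duplex was cut. Precursors without star reads are also among the 806. The second hairpin of scaffold 93 and the scaffold 15134 hairpin had 2 bases over at the base of the stem and 1 at the loop side. The scaffold 12 duplex had 1 base over at the loop side, and at the base its 3p arm ended 1 base short of the 5p arm, a value of -1. That 3p arm is listed at 19 bases and the 3p arm of scaffold 443840 at 22.

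The scaffold 12 star sequence is the first 19 bases of the 22-base miR-30e-3p sequence. In 9 of the 820 entries the star sequence lies inside a longer mature or star sequence of the list in this way, and scaffold 12 is the only miR-30 one. Reads of this 3p arm may thus be counted at all 3 hairpins, and their source cannot be told apart. If the 137644 reads are taken off the 3p arms of scaffolds 443840 and 93 (first), 472708 and 442922 reads remain, which is 1.37 and 1.28 times the reads of their 5p arms. In this count the 3p reads were above the 5p reads on both scaffolds. Both hairpins have identical arms, so these are not separate observations. The count assumes that scaffold 12 gave no more than its listed 3p reads, which was not tested.

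By arm, sequences with the 5p seed had 1673839 reads and the 3p sequences 749054, so 69.1% of the family's reads were on the 5p letters. Without the scaffold 12 star the 5p share was 73.2%. Of the reads with the 5p seed, 20.6% were listed under star because of the miR-30e-3p hairpins. Counted by mature reads and by side, 610607 of the 1939052 mature reads of the family, or 31.5% (interval 31.4% to 31.6%), lay on the 3p side.

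Set against the whole list, the family held a far larger share of star reads than of mature reads. Its 5 distinct mature sequences, of 676 in the list, held 0.711% of 272589277 mature reads (interval 0.710% to 0.712%). Of the reads outside miR-122 seeds they held 2.02%. Its star sequences held 483841 of 1489959 star reads, or 32.5% (interval 32.4% to 32.5%), with each star sequence counted once. The 5p arm of the miR-30e-3p hairpins, with 345139 reads, was the star sequence with the most reads of the 494 that had any. The 3p arm of scaffold 12 came 5th, behind stars of precursors named miR-100-5p (205955 reads), miR-199-3-3p (171549) and miR-148 (164695). Most of the share came from a single sequence. Without the star shared by scaffolds 443840 and 93 the family held 12.1% of star reads, and without that of scaffold 12 it held 25.6%.

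**Figure D3:**
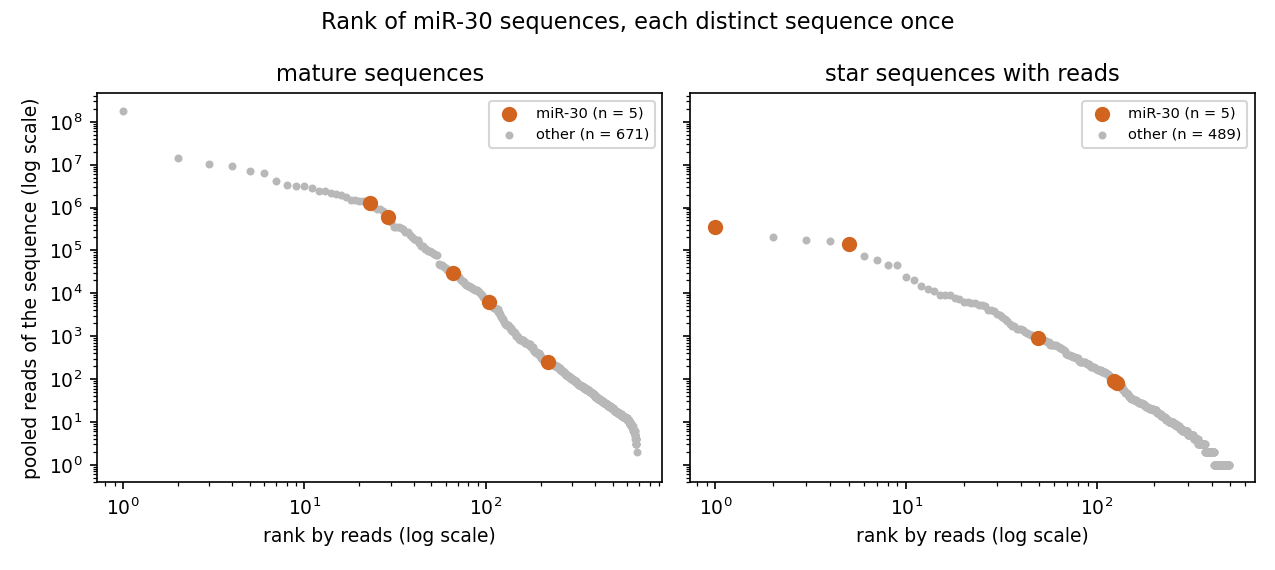
Pooled reads of each distinct mature sequence (left) and each star sequence with reads (right) against its rank, both on log scales, with miR-30 sequences as large orange points. The family begins at rank 23 among mature sequences and at rank 1 among star sequences, with 345139 star reads.

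Star shares within the family ran from 0% to 37.3% with a median of 9.62%, against a median of 0.402% over the 792 precursors with at least 10 reads of both arms. The family's median is the value of scaffold 12, whose star reads may be counted from other hairpins. With 0 star reads for scaffold 12 the median was 0.297%. A star share of 10% or more was seen in 3 of 7 members and in 22.7% of the 792, and scaffold 12 lay just under this limit. With at least 100000 reads of both arms, such a share was seen in 2 of 3 members and in 9.3% of 86 precursors. Outside the family these were 3 precursors named miR-199-3-3p, with 38.6% to 38.7%, 2 named miR-222a-5p, with 30.6% each, and 1 named miR-100-5p, with 10.5%. The 2 members with such a share at 100000 reads were the miR-30e-3p copies, whose arms are identical. That limit was not among the planned settings. It leaves out the members with shares of 12.7%, 0.297%, 0.266% and 0%. The 3p side had more reads than the 5p side in 3 of 7 members, against 50.3% of the 792. With 7 members that share letters and reads, these counts describe the family and do not set it apart.

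**Figure D4:**
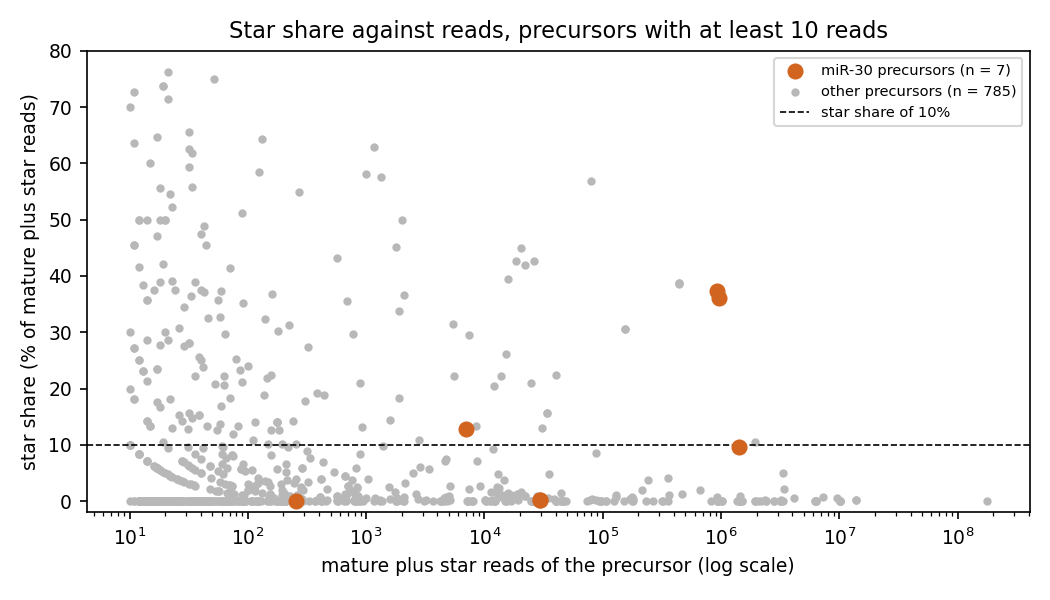
Star share, in percent of mature plus star reads, against those reads on a log scale, for 7 miR-30 precursors (orange) and 785 others (grey) with at least 10 reads. The miR-30e-3p hairpins lie at 36.1% with 955491 reads and 37.3% with 925700, and the dashed line marks 10%.

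Families with several copies differed in their star shares. Of 70 numbered families with 2 or more precursors of at least 10 reads, 15 had a precursor with a star share of 10% or more, miR-30 among them, and 9 had 2 or more such precursors. In let-7, miR-26 and miR-181, chosen for comparison with earlier results known, 0 precursors reached it. The 24 let-7 precursors held 8.88% of mature reads and 0.645% of star reads, and their star shares reached 2.30%. The 6 miR-26 precursors held 2.31% of mature reads and 0.143% of star reads, with star shares up to 0.0221%. The 10 miR-181 precursors held 0.416% of mature reads and 0.166% of star reads, with star shares up to 0.803%. In miR-30, 4 precursors had the mature sequence on the 5p side and 3 on the 3p side, scaffold 5846 among the latter. The numbers were 18 and 6 in let-7, 5 and 1 in miR-26, and 10 and 0 in miR-181. Among 72 numbered families with 2 or more entries, 28 had mature sequences on both sides. With at least 1000 reads per precursor these were 10 of 46 families.

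Hairpins with the same 5p arm differed in their loops, shown here in capitals. Only the miR-30e-3p pair has the same 3p arm as well.
Scaffold 443840: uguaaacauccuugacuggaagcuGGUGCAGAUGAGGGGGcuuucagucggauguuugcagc
Scaffold 93 (first): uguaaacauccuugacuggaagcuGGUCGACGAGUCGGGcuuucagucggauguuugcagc
Scaffold 93 (second): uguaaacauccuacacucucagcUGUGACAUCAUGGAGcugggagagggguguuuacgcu
Scaffold 15134: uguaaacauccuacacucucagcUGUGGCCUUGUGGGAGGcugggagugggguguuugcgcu

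The loops were 16 and 15 bases long in the miR-30e-3p pair and 15 and 17 bases in the other pair. Loop reads were 0 in all 4, so no loop read separates the miR-30e-3p copies. The miR-30e-3p copies differed by 29786 reads of the 3p arm, or 4.88% of the higher value, and by 5 reads of the 5p arm. Over the whole list, 104 mature sequences occur at several entries. In 58 of them the reads were equal at all entries, and in 11 they differed by more than 4.88%. The cause of the difference in the 3p arm was not tested.

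The hairpins lay on 6 scaffolds of a whole-genome shotgun assembly whose build is not named in the sources used here. Those on scaffold 93 followed each other on the minus strand with 460 bases between them, within 581 bases in all. One is of the UUUCAGU type and the other of the UGGG type, and each has a copy with the same 5p arm elsewhere, on scaffolds 443840 and 15134. They differed by far in reads, with 925700 of all parts for the first and 29669 for the second. No other entry lay on the scaffolds of the other 5 members. The share of all listed precursors with a neighbour within 10 kb is not given here, so the pair on scaffold 93 does not set the family apart. On scaffold 443840 only 47 bases lie between the hairpin and the end of the scaffold on the side where the second hairpin lies on scaffold 93, so a neighbour at that distance would not fit on it. The genes around the hairpins are not stated, since no annotation of this assembly was used here.

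Beyond the named entries, no arm in the list had a long run of bases in common with miR-30. No arm of the other 813 precursors shared a run of 10 bases or more with an arm of the family. The letters GUAAACA occurred in 0 of these 813 precursors. The list names entries by the seed of the mature sequence, so for that place the 0 was fixed by the rule. The 3p seeds that begin with UGGG occurred in 1 to 4 of the 813 each, and at bases 2 to 8 of 0 arms. The letters UUUCAGU occurred in 15 of them at any place. The 3p seed UUUCAGU stood at bases 2 to 8 of 1 further star sequence, with 5 reads. It is listed for both strands of 1 place on scaffold 1434.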

How the data were processed

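Small RNA libraries of 12 livers were made with a kit for small RNA after isolation with a miRNA kit, per the labels' protocols. Base calls were turned into reads with bcl2fastq 2.17.1.14, per the submitters' processing notes. What the authors deposited is 1 list of precursors, which miRDeep2 had predicted, per the file headers. It gives raw read counts of the mature, star and loop parts and their total, not normalized, and the deposited miRDeep2 score, a log-odds score. No column names a sample, so all values were taken as pooled. Reads summed over entries came to 390639806, and the depth per library is unknown. The sources used here name neither the aligner and its mismatches, nor the libraries used or a version of miRDeep2. Reads of identical sequences appear to be counted at each copy, so shares of the family's or the list's reads count each sequence once, at its highest value. Star shares of single precursors use the reads of each entry as listed.

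The arm was read from the place of the mature sequence in the precursor, which began with one arm and ended with the other in 820 of 820 entries. Starts count from 1. Intervals are exact binomial (Clopper-Pearson). A count of 0 was taken to allow up to 3 reads. Precursors were folded with RNAfold 2.7.2. Neighbours were sought within 10 kb on the same strand, and related sequences by a shared run of 15 bases. Members, families for comparison and settings were chosen with earlier results of this list known. Named entries were all with a miR-30 name, those related to or near them, and let-7, miR-26, miR-181 and miR-122 as sums. The precursors named for other families by their high star reads or star share were chosen after their values had been seen. The functions were tested on simulated data. Python 3.11.15, pandas 2.3.3, numpy 2.4.6, scipy 1.17.1 and matplotlib 3.10.9 were used. The planned comparison of sites needs counts per animal and was not made.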

Additional observations from a re-analysis of the deposited data

Results flagged for a closer look

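Loop reads enter no comparison of the family. The scaffold 12 precursor had 26 loop reads, more than the 3 that a count of 0 allows, and the other 6 members had 0. These reads were 0.00182% of the precursor's total. In the whole list 44 precursors had more than 3 loop reads, and scaffold 12 came 21st by loop reads.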

How the results depend on the processing

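No paired analysis was possible because the list has no column per animal, and no replicate could be left out. The settings for the share of star reads, for scaffold 12 without star reads and for the arm by letters were chosen after seeing the data. The share of mature reads, 0.711%, was 0.657% summed over entries, 0.778% with 1 sequence per seed, 0.708% with 1 entry per locus, 0.884% by total reads and 2.02% without miR-122. The share on the 3p side, 31.5%, was 30.9% with star reads added and 31.0% with reads divided over copies. The median star share, 9.62%, was 11.2% with at least 1000 reads, which leaves out scaffold 5846, and 0.297% with 0 star reads for scaffold 12. The share of star reads, 32.5%, was 35.4% summed over entries and with 1 entry per locus, 25.6% without the star of scaffold 12 and 12.1% without the star shared by scaffolds 443840 and 93. In the other 14 cases shares stayed within their counting interval and counts within 1.5 times, among them the number of precursors (7 or 6), of members with a neighbour (2 at 3 kb, at 50 kb and on either strand) and of related entries (0 with runs of 12 and 18 bases). Adding related unmatched entries gave no value, since none was found. No spread between animals is available for any of these values.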
